A study of Mus musculus with 24 samples.

Results

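The 82 genes described here encode the proteins of the cytosolic ribosome. They were taken from the 54658 genes of the expression table by symbol (Rpl or Rps and a number, Rplp0 to Rplp2, and Rpsa), without the Rps6 kinases and the rows named as pseudogenes, and they had a mean normalized read count of at least 100 over the 24 libraries. There were 89 symbols of this form, and 48 of the 82 members belong to the large subunit and 34 to the small subunit. The members closest to the limit were Rps12l1, with a mean of 165, and Rps4l, with a mean of 177. The highest of the 7 genes under it was Rps3a3, with a mean of 45.5, and Rpl10l had no read in any library. Rps12l1 and Rps4l are annotated as processed pseudogenes, while the other 80 members are annotated as protein coding.

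Dorsal telencephalon, the part of the embryonic forebrain that forms the neocortex, was compared between mice lacking Cep135, a protein of the centriole, and their controls. At E11.5 there were 3 Cep135-/- embryos (A, B and C) and 3 Cep135+/+ embryos (D, E and F), and at E14.5 there were 3 Cep135-/- embryos (1, 2 and 6) and 3 Cep135+/+ embryos (3, 4 and 5), each giving 1 cortex library. Cells of the 6 E14.5 embryos were also cultured as incipient neurospheres, and each embryo gave 1 library after 12 hours and 1 after 24 hours. No drug was given to any group, and the paper describes a culture medium with the growth factors EGF and FGF2. The mutation is a small germline deletion made with CRISPR/Cas9, so every cell of a mutant embryo carries it, and it lies in an early exon outside the 3′ ends that the libraries read. The normalized read count of Cep135 ranged from 246 to 336 in E11.5 mutants and from 293 to 375 in E11.5 controls, which checks nothing about the deletion. The cortex of mutant 6 has 1 label that gives E11.5 and 2 that give E14.5, and it was used as an E14.5 cortex.

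Each ribosome holds 1 copy of nearly every one of these proteins, so the genes of both subunits are usually expressed together and at high levels. Their mRNAs begin with a run of pyrimidines, the 5′ TOP sequence, through which mTOR and Larp1 adjust their translation and stability to growth. Ribosomal proteins that are not built into ribosomes, among them Rpl5, Rpl11 and Rpl23, can bind Mdm2 and so stabilize p53, and Rps27l, a paralog of Rps27, is itself a known p53 target. Neural progenitors grow and divide fast, and neurons that leave the cell cycle slow their ribosome production.

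Sequences around the start site are shown for the 12 members described below library by library or by their smallest p for which a start was found, because the members moved together and the letters at their starts were not used to choose them. RefSeq start sites (GRCm38.p6) were found for 60 of the 82 members, with 71 starts in all. Each line gives, for the first start listed, 60 bases before the start and 20 bases from it, 5′ to 3′ on the gene's own strand, and capitals mark the pyrimidine runs CTTTC or CTTTT, or else CTTCC, within 20 bases of the start.
Rps27 (chr3:90213629-90213708, minus strand): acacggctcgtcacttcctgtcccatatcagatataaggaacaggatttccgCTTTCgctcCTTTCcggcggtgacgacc
Rps27l (chr9:66946026-66946105, plus strand): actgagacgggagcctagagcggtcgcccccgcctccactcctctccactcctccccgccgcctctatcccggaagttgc
Rps6 (chr4:86857348-86857427, minus strand): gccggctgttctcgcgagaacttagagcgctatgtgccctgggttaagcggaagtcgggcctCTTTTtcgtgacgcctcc
Rpl12 (chr2:32961652-32961731, plus strand): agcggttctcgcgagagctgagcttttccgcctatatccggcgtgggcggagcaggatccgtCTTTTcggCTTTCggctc
Rps3a1 (chr3:86142649-86142728, minus strand): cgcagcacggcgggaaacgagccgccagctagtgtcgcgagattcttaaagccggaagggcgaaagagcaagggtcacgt
Rpl7l1 (chr17:46782637-46782716, minus strand): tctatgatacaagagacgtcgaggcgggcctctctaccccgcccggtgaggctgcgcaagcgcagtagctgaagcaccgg
Rplp0 (chr5:115559407-115559486, plus strand): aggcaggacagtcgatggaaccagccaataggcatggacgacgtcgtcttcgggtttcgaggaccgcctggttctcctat
Rpl37a (chr1:72711200-72711279, plus strand): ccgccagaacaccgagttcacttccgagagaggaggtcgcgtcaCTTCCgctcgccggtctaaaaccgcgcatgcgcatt
Rps12 (chr10:23787190-23787269, minus strand): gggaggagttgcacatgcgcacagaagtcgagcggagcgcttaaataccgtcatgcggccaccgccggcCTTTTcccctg
Rps19 (chr7:24884532-24884611, plus strand): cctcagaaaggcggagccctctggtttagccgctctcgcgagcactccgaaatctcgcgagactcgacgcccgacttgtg
Rps2 (chr17:24720003-24720082, plus strand): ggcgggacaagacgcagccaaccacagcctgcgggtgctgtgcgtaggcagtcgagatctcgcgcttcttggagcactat
Rpl14 (chr9:120571457-120571536, plus strand): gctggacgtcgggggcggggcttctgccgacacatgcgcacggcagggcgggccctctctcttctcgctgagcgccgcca
The runs occurred on the sense strand within 20 bases of the start in 45.1% of the 71 member starts and in 17.2% of all 32851 starts. CGGAAG, the core of the site bound by Ets-type factors, occurred on either strand within the whole 300 bases of the table in 62.0% of the member starts and in 16.9% of all starts, and its reverse complement can overlap the last of the 3 runs. The letters of both motifs were chosen after the members' starts had been seen, so these shares are a description. Of the 12 genes shown, 5 had such a run and 7 (Rps27l, Rps3a1, Rpl7l1, Rplp0, Rps19, Rps2 and Rpl14) had none of the 3 in this window. Only these letters were searched, so other stretches of pyrimidines were not counted. Rpl14 has such a stretch across its start, ccctctctcttctc. The search therefore does not show that the 7 genes lack a 5′ TOP sequence. Rplp0, Rps19, Rpl7l1 and Rpl14 had no CGGAAG in the 300 bases.

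The libraries held 4732781 to 11645213 reads on genes, and the normalized read count is the read count divided by 1 size factor per library. Gm42418, which carries ribosomal RNA sequence, took 6.11% to 34.8% of the normalized counts. At 24 hours its share reached 23.0% in the mutants and ran from 6.26% to 13.9% in the controls, without overlap, and read depth did not overlap between the genotypes either. The 8 markers of postmitotic neurons summed to 7155 to 10554 at E11.5, to 29665 to 40981 at E14.5 and to 25505 to 42847 in culture, so the labelled tissue holds neurons as well as progenitors. By Xist and Y-linked transcripts embryos A, C, E, 1 and 2 were female, and all E14.5 controls were male. Members had a median of 4581 reads in a library and at least 45. A read comes from the 3′ end of a transcript and may also match a near-identical copy elsewhere, so the split between a member and its pseudogenes is uncertain. The 298 rows whose ribosomal protein symbol carries -ps summed to 0.957% to 1.67% of the member sum. Pseudogenes under other names, such as Rps3a3, were not counted, so this share is no upper limit. Levels were compared between libraries and not between genes.

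The members were highest in E11.5 cortex, lower in E14.5 cortex and lower again in culture. Their summed normalized read count was 549302 ± 27619 in E11.5 cortex, 434721 ± 19918 in E14.5 cortex, 341045 ± 16107 after 12 hours and 373060 ± 19276 after 24 hours (mean ± SD, n = 6 libraries of both genotypes). The 6 E11.5 libraries lay between 517298 and 592275 and the 6 E14.5 libraries between 398925 and 460067. The 12-hour libraries lay between 311255 and 356242 and the 24-hour libraries between 351922 and 404157. The cortices of the 2 ages and the 12-hour cultures therefore did not overlap, while the ranges of the 12-hour and 24-hour cultures overlapped slightly. The members held 7.31% to 8.64% of all normalized counts in the younger cortex, 5.61% to 6.48% in the older, 3.07% to 4.66% after 12 hours in culture and 4.22% to 5.20% after 24 hours. Without Gm42418, Gm26917 and the mitochondrial genes in the total, these shares were 8.83% to 9.80%, 7.07% to 7.62%, 5.03% to 5.91% and 5.79% to 6.66%, and the order of the conditions was the same.

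**Figure D1:**
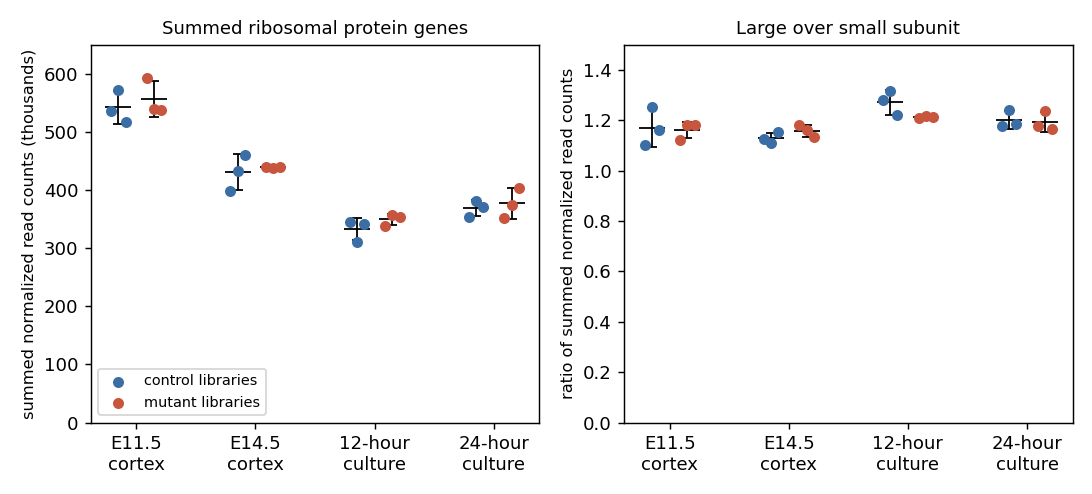
The left panel plots the summed normalized read count of the 82 genes and the right panel the ratio of the large to the small subunit sum, for each of the 24 libraries, with the mean and SD of the 3 libraries of a group in black. The sums step down from E11.5 (517298 to 592275) to 12 hours (311255 to 356242) in both genotypes, and the ratio is between 1.10 and 1.32 throughout.

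From E11.5 to E14.5 every ribosomal protein gene had a log2 fold change below 0, and 61 of the 82 fell in the test (36 of 48 in the large and 25 of 34 in the small subunit), while 0 rose. Of all 13650 genes tested, 29.3% fell and 23.8% rose. The test was limma on log2-transformed normalized read counts, after adding 1, with genotype as a term, with adjustment over all genes and a threshold of 0.05. The median log2 fold change of the members was -0.34, a fold of 0.788, and that of all genes was -0.08. For 30 members, or 36.6%, every E14.5 library lay under every E11.5 library. Of all 13650 genes tested, 2038 were lower at E14.5 in this way, and 30.5% did not overlap in either direction. The median was -0.33 in the controls alone, with 82 members below 0. In the mutants alone it was -0.35, with 79 members below 0 and 3 above.

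Among large subunit genes without overlap, Rpl3 and Rpl12 had the smallest p. Rpl3 encodes a protein next to the peptidyl transferase centre. In E11.5 cortex the mutants (A, B, C) gave normalized read counts of 7803, 7528 and 7374, and the controls (D, E, F) gave 7285, 7708 and 7242. In E14.5 cortex the mutants (1, 2, 6) gave 4642, 4503 and 4527, and the controls (3, 4, 5) gave 4474, 5255 and 5547. No E14.5 library reached an E11.5 library, and the log2 fold change was -0.64 (SE 0.08, adjusted p = 3.61e-06 from limma). Rpl12, a protein of the stalk base, was at 3360 to 4240 at E11.5 and at 2118 to 2654 at E14.5, a log2 fold change of -0.67 (SE 0.08, adjusted p = 6.31e-06 from limma).

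Rps6, the small subunit protein that S6 kinases phosphorylate, had counts of 4396, 3821 and 4001 in the E11.5 mutants, beside 4184, 4875 and 4011 in their controls. The E14.5 mutants had 2520, 2674 and 2967, beside 2656, 2850 and 2787 in their controls. Its ranges did not overlap between the ages, with a log2 fold change of -0.62 (SE 0.08, adjusted p = 5.58e-06 from limma). Rps3a1 was at 9590 to 12044 at E11.5 and at 6582 to 7186 at E14.5, a log2 fold change of -0.56 (SE 0.08, adjusted p = 1.45e-05 from limma). Rpl7l1, the paralog of Rpl7 that acts in assembly of the large subunit, was at 575 to 760 and at 359 to 438, with a log2 fold change of -0.69 (SE 0.09, adjusted p = 7.92e-06 from limma).

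The lowest log2 fold change was that of Rplp1, a protein of the acidic stalk, at -1.72 (SE 0.26, adjusted p = 4.39e-05 from limma). Its E11.5 values ran from 4056 in control D to 16458 in control E, and its E14.5 values from 2061 to 3649. At the other end Rpl26 had a log2 fold change of -0.03 (SE 0.19, adjusted p = 0.899 from limma). Of the members, 22 had a log2 fold change between -0.25 and 0.25 and 17 were beyond -0.5.

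The other genes named for their known roles also lay below 0 between the ages. Of the Mdm2-binding proteins, Rpl11 fell by 0.53 (SE 0.11, adjusted p = 0.000647), Rpl5 by 0.35 (SE 0.12, adjusted p = 0.0195) and Rpl23 by 0.31 (SE 0.09, adjusted p = 0.0121) on the log2 scale in limma. Of the paralog pairs, Rps27l fell by 0.69 and Rps27 had a log2 fold change of -0.30 (SE 0.13, adjusted p = 0.0571 from limma), Rpl22l1 fell by 0.87 and Rpl22 by 0.42, Rps4l fell by 0.70 and Rps4x by 0.30, and Rpl7 fell by 0.32. Rpl36a fell by 0.35, Rpl39 by 0.45 and the paralog Rpl36al, which is no member, by 0.51. Rpl10 had a log2 fold change of -0.31 (SE 0.21, adjusted p = 0.238 from limma). The call of Rpl39 was lost in 9 of 20 alternatives (adjusted p up to 0.14 from edgeR). With quantile normalization in limma the log2 fold changes of Rpl7, Rps4x and Rpl23 were -0.14, -0.12 and -0.13 and passed the test no longer. The calls of Rpl5 and Rpl36a were lost in 4 and 1 of 20 alternatives. The paralogs Rpl3l and Rpl39l were below 1 normalized read on average.

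The E11.5 and E14.5 embryos carry different title prefixes, whose meaning the labels do not give, so age and prefix cannot be told apart. For E11.5 mutants B and C another label begins with TL where the title begins with TC, and the title was used. Controls E and F carry TC in both. In whole tissue, fewer cells of a type and less RNA per cell cannot be told apart either. The 4 proliferation genes fell and the 8 neuronal markers rose between the ages, and their part in the members' change was not tested. With quantile normalization the members that fell were 38, and with edgeR on whole reads without control D 39. In these 2 fits 7291 and 6551 of all genes were called in either direction.

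The cultures showed a second step down. After 12 hours 44 of the 82 members fell against E14.5 cortex of the same embryos (20 of 48 in the large and 24 of 34 in the small subunit) and 0 rose, where 16.1% of all 13601 genes tested fell and 14.1% rose (limma). The median log2 fold change was -0.32, a fold of 0.802, beside -0.06 for all genes. It was -0.27 in the large and -0.36 in the small subunit. In each of the 6 embryos the summed count was lower in the culture than in the cortex, and 61 to 75 of the 82 members were lower. Only Rpl7l1, Rpl21, Rplp2 and Rps27l had a log2 fold change above 0 in this fit, and none of these passed the test.

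Rpl32 had cortex counts of 5027, 5897 and 5572 for mutants 1, 2 and 6, and of 5526, 5859 and 5514 for controls 3, 4 and 5. Their 12-hour cultures had 3638, 3692 and 4212, and 3465, 2889 and 3822. Every culture lay under every cortex, and the log2 fold change was -0.63 (SE 0.09, adjusted p = 0.000127 from limma). Rplp0, the stalk protein on which Rplp1 and Rplp2 sit, was at 7089 to 8644 in cortex and at 4541 to 6161 in culture, a log2 fold change of -0.61 (SE 0.09, adjusted p = 0.000156 from limma). Rpl37a was at 5457 to 6590 in cortex and at 3445 to 4925 in culture, a log2 fold change of -0.58 (SE 0.09, adjusted p = 0.00027 from limma). None of the 3 genes overlapped between cortex and culture.

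In the small subunit Rps29 was at 9284 to 10921 in cortex and at 4070 to 7174 in culture, a log2 fold change of -0.73 (SE 0.12, adjusted p = 0.000323 from limma). Its ranges did not overlap between cortex and culture. This held for 16 members in all, or 19.5%, beside 14.4% of all genes in either direction.

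The named pairs moved unevenly in culture. Rps27 fell by 0.67 (SE 0.16, adjusted p = 0.00519) while Rps27l had a log2 fold change of 0.15 (SE 0.13, adjusted p = 0.382), both from limma. Rpl22 fell by 0.37 and Rpl22l1 had a log2 fold change of -0.13 (SE 0.26, adjusted p = 0.727), and Rpl7 fell by 0.40 while Rpl7l1 had a log2 fold change of 0.23 (SE 0.11, adjusted p = 0.115), again from limma. Rps4x fell by 0.51, Rps4l by 0.93, Rpl39 by 0.92 and Rpl36a by 0.46, and Rpl36al rose by 0.31 (SE 0.10, adjusted p = 0.0264 from limma), a call lost in 9 of 25 alternatives (adjusted p up to 0.132, with quantile normalization in limma). Rpl3, the member with the smallest p between the ages, had a log2 fold change of -0.08 (SE 0.08, adjusted p = 0.482 from limma) in culture. Rpl5, Rpl11, Rpl23 and Rpl10 were at -0.00096, -0.27, -0.20 and -0.27 on the same scale, and none of these 4 passed the test. The difference between a paralog and its partner was not tested.

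From 12 to 24 hours no member passed the test. The log2 fold change was above 0 for 75 of the 82, with a median of 0.12 beside 0.02 for all genes, and the summed count was higher at 24 hours for each of the 6 embryos, in which 49 to 73 of the 82 members were higher. Limma called 0 members, where 0.150% of all 13359 genes rose and 0.142% fell, and 15 members had an unadjusted p under 0.05. DESeq2 called 1 member, among 156 of all genes, and edgeR 0. Rps19 had the smallest adjusted p. Mutants 1, 2 and 6 had counts of 4033, 4123 and 4121 after 12 hours, then 4302, 5329 and 6252 after 24 hours. Controls 3, 4 and 5 had 4647, 4016 and 4598, then 5227, 6057 and 5940. The level was higher at 24 hours in 6 of 6 embryos, and the log2 fold change was 0.37 (SE 0.09, adjusted p = 0.0935 from limma). Rps12 had a log2 fold change of 0.42 (SE 0.11, adjusted p = 0.162 from limma). With the embryo as a replicate block the adjusted p from limma was 0.0343 for Rps19 and 0.0173 for Rps12. These 2 were the members called, among 104 of all genes. Both genes were named after their values were seen. Rps27l was among the 7 members below 0, at -0.13 (SE 0.11, adjusted p = 0.775 from limma).

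**Figure D2:**
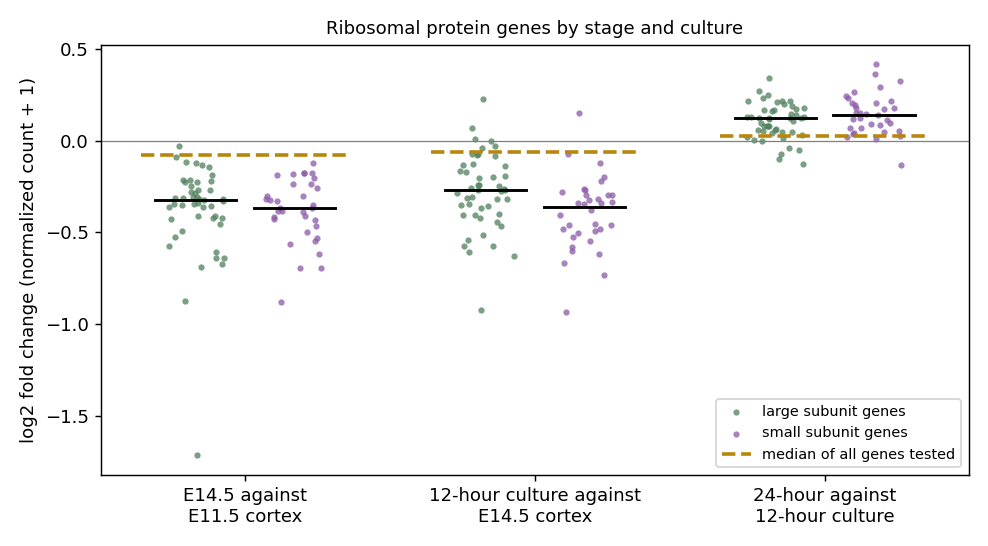
Each point is the log2 fold change of 1 of the 82 genes, large subunit in green and small subunit in purple, for the 3 comparisons of age and culture, with the median as a black bar and the median of all genes tested as a dashed line. All 82 genes lie below 0 between the ages and 78 lie below 0 in 12-hour culture, while 75 lie above 0 between 12 and 24 hours.

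For the balance of the subunits, only E14.5 cortex and 12-hour culture had ranges that did not overlap. The ratio of the large to the small subunit sum was 1.11 to 1.18 in E14.5 cortex and 1.21 to 1.32 in 12-hour culture, without overlap. At 24 hours it was 1.17 to 1.24, which overlapped both. The mean sum of the small subunit was 202801 in E14.5 cortex and 152196 in 12-hour culture, and that of the large subunit was 231920 and 188848. The ratio ran from 1.10 to 1.25 in E11.5 cortex, which overlapped every other condition. These values are given as a description, without a test and without pairing by embryo.

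The genes that build ribosomes moved with the ribosomal protein genes between the ages and against them in culture. Of 34 genes for ribosome assembly and ribosomal RNA synthesis, 25 fell and 0 rose between the ages, where 29.3% of all genes fell and 23.8% rose. Their median log2 fold change was -0.52. In 12-hour culture 21 of the 34 rose and 1, Nop10, fell, where 14.1% of all genes rose and 16.1% fell. The median of the 34 was 0.53, while the members had a median of -0.32. Gnl3, nucleostemin, fell by 0.71 (SE 0.07, adjusted p = 7.18e-07) between the ages and rose by 1.31 (SE 0.10, adjusted p = 1.94e-07) in culture in limma. Fbl, the methyltransferase fibrillarin, fell by 0.52 and then rose by 0.62, and Ncl, nucleolin, fell by 0.74 and then rose by 0.88. Polr1a, the largest subunit of RNA polymerase I, fell by 0.70 and then rose by 0.69.

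The other lists of the pathway differed in the 12-hour cultures. Between the ages 29.3% of all genes fell and 23.8% rose, and in 12-hour culture 16.1% fell and 14.1% rose. Of 15 translation factors with a 5′ TOP, 9 fell and 1 rose between the ages, and 5 fell and 1 rose in 12-hour culture. Of 76 mitochondrial ribosomal protein genes tested, 43 fell and 0 rose between the ages, with a median of -0.32, and 14 fell and 4 rose in culture, with a median of -0.18. The share that fell in culture was near the 16.1% of all genes. Fau, which encodes a ribosomal protein fused to a ubiquitin-like protein, fell by 0.51 in culture, and Rack1, a protein of the small subunit, fell by 0.41 between the ages. Of the 14 regulators, 6 rose and 2 fell in culture, where 14.1% of all genes rose and 16.1% fell. The list mixes genes of mTOR and of p53, so these counts give no common direction. Larp1 rose by 0.86 and Mycn fell by 0.64.

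**Figure D3:**
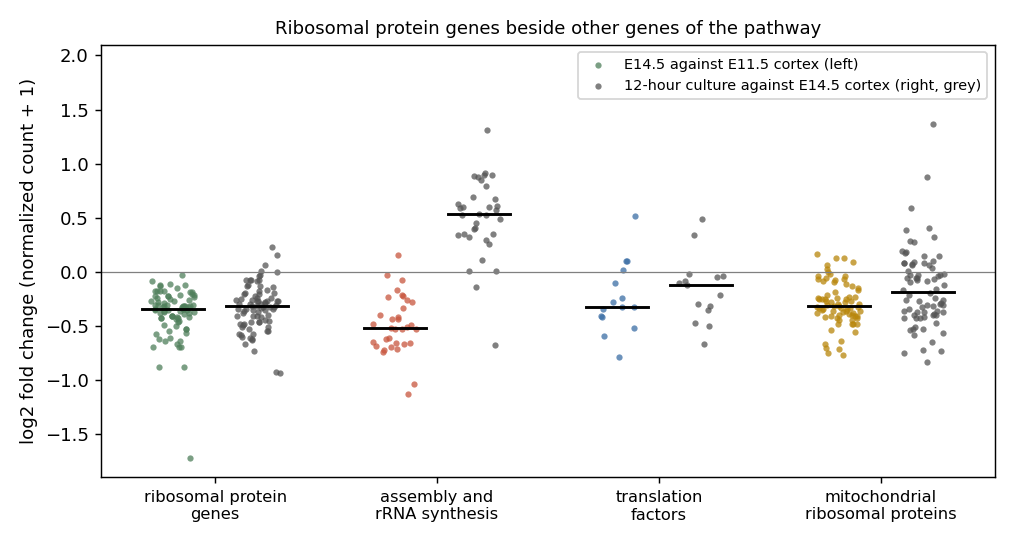
Log2 fold changes of single genes are plotted for 4 groups of genes, with the comparison of ages on the left of each pair in colour and 12-hour culture against E14.5 cortex on the right in grey, and black bars at the medians. The assembly genes have a median of -0.52 between the ages and 0.53 in culture, and the ribosomal protein genes -0.34 and -0.32.

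In culture the composition of the samples differed too. The erythroid markers summed to 38297 to 45422 in E14.5 cortex and to 69471 to 153196 at 12 hours, and 8 of the 10 rose, with 1 lower. All 5 endothelial and all 5 microglial markers fell. Gm42418 took 9.78% to 15.0% in E14.5 cortex and 10.7% to 34.8% at 12 hours. Without the 3 12-hour libraries above 25% Gm42418 (control 4, mutants 2 and 6), 32 members fell and 0 rose, and the median was still -0.32. The part of erythroid cells in the members' change was not tested.

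Between genotypes no ribosomal protein gene passed the test in limma at either age or either time in culture. The summed count was 537126 to 592275 in mutants and 517298 to 572611 in controls at E11.5, and 438287 to 439689 in mutants and 398925 to 460067 in controls at E14.5. At 12 hours it was 338911 to 356242 in mutants and 311255 to 345267 in controls, and at 24 hours it was 351922 to 404157 in mutants and 354104 to 381900 in controls. The genotypes overlapped in every condition. Limma called 0 of the 82 members at E11.5, where 0.0149% of all genes tested were called, and 0 at E14.5, where 0.0736% were called. It called 0 members at 12 hours, with 0% of all genes called, 0 at 24 hours, with 0.271% called, and 0 in both ages of cortex together, with 0.139% called. At an unadjusted p under 0.05 there were 4, 6, 3, 3 and 1 members in the same order. EdgeR also called 0 members in each, with control D left out where E11.5 cortex entered. DESeq2 called 0 in E14.5 cortex, 0 after 12 hours of culture and 1, among 198 of all genes, after 24 hours.

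The median log2 fold change of the members, mutants over controls, was 0.03 in E11.5 cortex, -0.02 in E14.5 cortex, 0.11 after 12 hours and 0.06 after 24 hours. The SE of a single member had a median of 0.12 to 0.16 in these 4 comparisons, so changes of this size could not be seen gene by gene with 3 embryos per group. Between 64 and 77 of the 82 members lay within 0.25 of 0. No interaction of genotype with age, culture or culture time passed the test for any member, and 0%, 0% and 0% of all genes did. At an unadjusted p under 0.05 the 3 interactions gave 4, 4 and 0 members, and with edgeR and DESeq2, run for both culture interactions, 0 members were called as well.

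**Figure D4:**
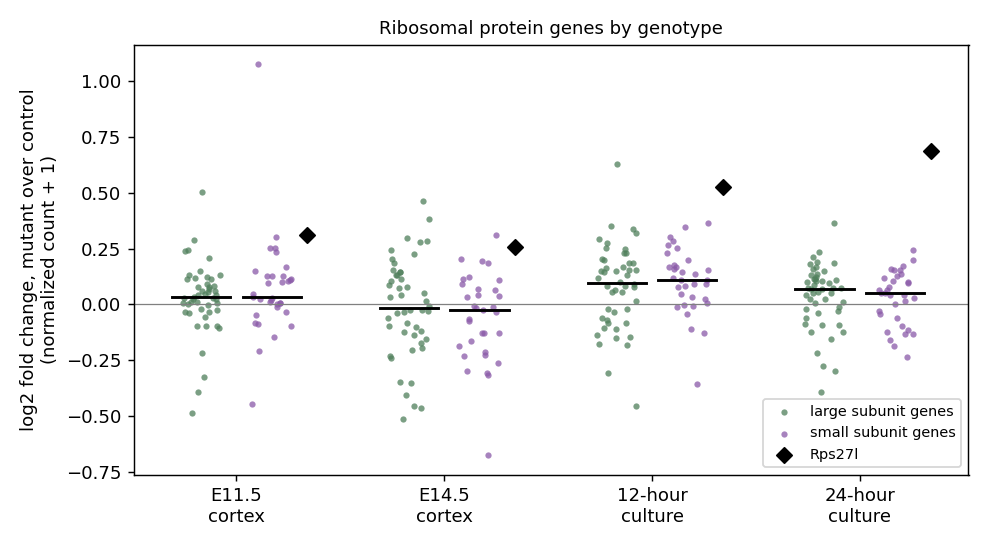
Each point is the log2 fold change of 1 gene in mutants over controls, large subunit in green and small subunit in purple with a black bar at the median, and the diamond is Rps27l, which is drawn apart from the small subunit points. The medians of all 82 genes lie between -0.02 and 0.11, and Rps27l lies above 0 in each condition, from 0.26 at E14.5 to 0.69 at 24 hours.

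Rps27l, the paralog of Rps27 that p53 is known to induce, had the smallest p of the members at 12 hours, at 24 hours and in both ages of cortex together. In E11.5 cortex the mutants (A, B, C) had counts of 1077, 911 and 1062, beside 898, 747 and 811 in the controls (D, E, F). In E14.5 cortex the mutants (1, 2, 6) had 603, 690 and 559, beside 527, 607 and 425 in the controls (3, 4, 5). The mutants were all above the controls in the younger cortex, and in the older the groups overlapped. The 12-hour cultures of mutants 1, 2 and 6 had 643, 680 and 970, beside 544, 542 and 478 for controls 3, 4 and 5. The 24-hour cultures had 698, 835 and 653, beside 474, 453 and 421. All mutants lay above all controls at both times in culture. Marker sums also separated the genotypes at 24 hours. The apical progenitor markers summed to 11528 to 12874 in mutants and 9032 to 10141 in controls, with 5 of 7 markers higher without overlap, and the neuronal markers to 25898 to 31709 and 32576 to 40221, with all 8 below 0 and 1 called lower. The genes listed as liver markers summed to 5220 to 16632 in mutants and 775 to 3536 in controls, with 3 of the 6 tested called higher. Nearly all of this sum was Ttr, at 764 to 16344 over the 24-hour libraries, where no other gene of the list was above 137. The sum is therefore mainly the level of Ttr and does not show that liver cells were present. The part of cell composition in the level of Rps27l was not tested. Of all genes tested, 13.3% did not overlap between genotypes at E11.5, 11.0% at 12 hours and 16.2% at 24 hours.

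The log2 fold change of Rps27l was 0.31 (SE 0.12, adjusted p = 0.617 from limma) at E11.5, 0.26 (SE 0.16, adjusted p = 0.631 from limma) at E14.5, 0.53 (SE 0.19, adjusted p = 0.913 from limma) at 12 hours and 0.69 (SE 0.14, adjusted p = 0.0652 from limma) at 24 hours. In both ages of cortex together it was 0.28 (SE 0.10, adjusted p = 0.403 from limma). None of these passed the threshold of 0.05. At 24 hours DESeq2 gave an adjusted p of 0.00307 and limma without the filter on low values 0.0175, while the range over all alternatives was 0.00307 to 0.909. The highest came from limma with a term for the Gm42418 share, with a log2 fold change of 0.63 (SE 0.40), and with a term for sex the log2 fold change was 0.54 (adjusted p = 0.314 from limma). The term for sex moved Rps27l to 0.12 (adjusted p = 0.914 from limma) in E14.5 cortex and to 0.90 (adjusted p = 0.0705 from limma) at 12 hours. Only mutant 6 is male among these mutants, and the part of sex was not tested further. The interactions of genotype with age, culture and culture time had log2 values of -0.06, 0.27 and 0.16 for Rps27l, with no adjusted p below 0.808 from limma.

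Rps27, its partner, was measured in the same libraries. Its E11.5 counts were 3868, 2597 and 3141 for mutants, beside 3175, 2383 and 2466 for controls. Its 24-hour counts were 1958, 1333 and 2115 for mutants, beside 1985, 1363 and 1635 for controls. The genotypes overlapped in all 4 conditions.

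**Figure D5:**
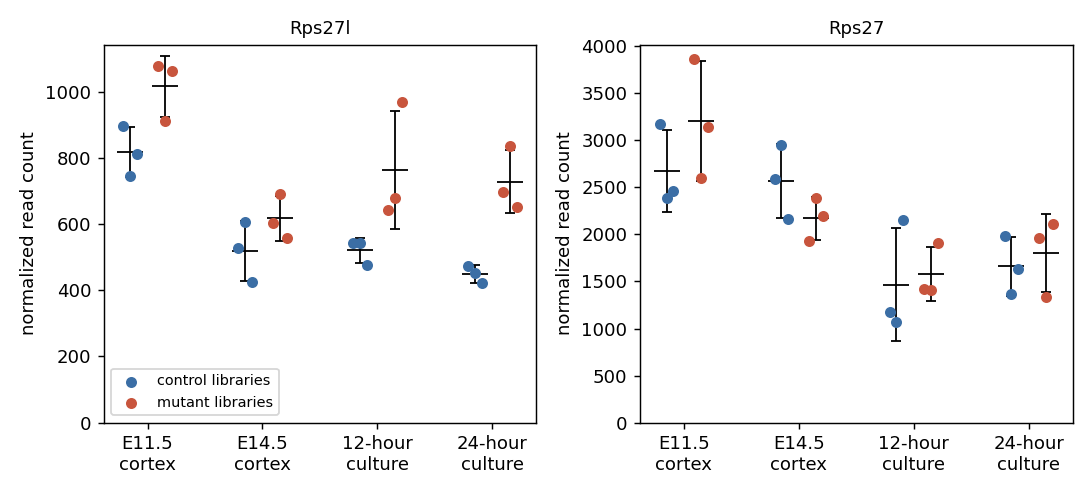
Normalized read counts of Rps27l (left) and Rps27 (right) are plotted for each library by condition and genotype, with the mean and SD of 3 libraries in black. Rps27l in 24-hour mutants (653 to 835) lies above the controls (421 to 474), and for Rps27 the genotypes overlap in every condition.

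In cortex of a single age other members had the smallest p. Rps2 had E11.5 counts of 1642, 916 and 1399 for mutants, beside 492, 446 and 1020 for controls, which overlap, with a log2 fold change of 1.08 (SE 0.30, adjusted p = 0.566 from limma). Rpl14 had E14.5 counts of 6359, 5851 and 5234 for mutants, beside 3676, 3793 and 5345 for controls, again with overlap, and had a log2 fold change of 0.46 (SE 0.16, adjusted p = 0.498 from limma). Neither passed the test. The genes that encode the Mdm2-binding proteins Rpl5, Rpl11 and Rpl23 overlapped between the genotypes in each condition.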

How the data were processed

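RNA was measured in 24 libraries of 3′ ends (QuantSeq). The authors aligned reads to GRCm38 with TopHat (TopHat2 2.0.10, Bowtie 1.0.0, SAMtools 0.1.19, per the submitters' processing notes), counted them per gene by strand with HTSeq 0.6.1, and deposited 1 table of signal, read counts divided by 1 size factor per library, with replicates kept apart. Divided by what 1 read is worth in its library, each of the 484666 positive values came out whole within 0.01 reads, which gave whole reads. In control D of E11.5 that worth is nearly 1, so count tests left out comparisons with it, apart from an added one without D.

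The members, lists and tests were chosen with earlier results of these data known. Log2 of the value plus 1 was tested with limma 3.58.1 (R 4.3.3, intensity trend), keeping genes whose mean over the libraries of a fit reached 10, with p adjusted over all genes (Benjamini-Hochberg) and a threshold of 0.05. Age, culture and culture time were fitted over both genotypes with genotype as a term. Alternatives were edgeR 4.0.16 and DESeq2 1.42.0 on whole reads, other pseudocounts (0.1 and 5), filters (none, or a mean of 50) and scalings, terms for sex and title prefix, the embryo as a replicate block, an adjusted p under 0.1, and leaving out each library. The steps were tested on simulated data. P-values between genotypes and between ages measure the spread between embryos, 3 per group. In the main fits of culture and culture time, and their interactions with genotype, libraries of the same embryo were treated as independent. The replicate block was the alternative to this.

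Cortex and cultures with the same number come from the same embryo. Over 18 such pairs the deviations from the group means had correlations of -0.11 to 0.24, with a median of 0.14. The genes named are the paralogs and their partners, the Mdm2-binding proteins, up to 5 higher and 5 lower members per comparison with the smallest p and no overlap, the member with the smallest p between genotypes, and Cep135. Positions are from RefSeq (GRCm38.p6), the annotation of pseudogenes is from GENCODE vM21, and motifs were searched as plain letters that were changed once after the members' starts had been seen. From 12 to 24 hours fold changes are printed for Rps12, Rps19 and Rps27l only. Alternatives for the other named genes there were left out of the comparison of settings after some were seen to change sign. Single results for some genes are not reported here.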

Additional observations from a re-analysis of the deposited data

How the results depend on the processing

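The 11 counts of members called were recomputed under 225 alternatives, and 213 stayed within 1.5 times the count reported. For the fall from E11.5 to E14.5 (61 members), quantile normalization gave 38 and edgeR on whole reads without control D 39. These 2 settings called 7291 and 6551 of all genes in either direction, beside 7247 in the main fit. Leaving out single libraries gave 52 to 64 members. For the fall in 12-hour culture (44 members) leaving out single libraries gave 32 to 49. Between genotypes at 12 hours (0 members) the term for sex gave 1, Rpl21, with 182 of all genes called. At 24 hours (0 members) no filter, DESeq2 and an adjusted p under 0.1 each gave 1, Rps27l. These settings called 140, 198 and 105 of all genes. From 12 to 24 hours (0 members) DESeq2 and an adjusted p under 0.1 each gave 1, Rps19, with 156 and 88 of all genes called. Leaving out single libraries gave 0 to 1, the 1 being Rps19 without 24-hour mutant 1. There the replicate block gave 2 members with limma, 2 with edgeR and 4 with DESeq2, Rps12 and Rps19 among them. With the block 104, 100 and 241 of all genes were called, beside 39 in the main fit. The block moved no other count of members by over 1.5 times. The block with edgeR or DESeq2, the omission of 12-hour libraries above 25% Gm42418, the edgeR fit without D and the term for the Gm42418 share were chosen after seeing the data.

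For single genes, 1109 of 1167 alternative values kept their direction and their side of the threshold. The direction of Rpl5 in 12-hour culture (-0.00096) was reversed with edgeR (0.042), DESeq2 (0.026) and the replicate block with edgeR (0.015) or DESeq2 (0.00094), and was -0.12 to 0.081 with single libraries left out. In the same way Rpl22l1 in 12-hour culture ran from -0.31 to 0.050 and the interaction of genotype and age for Rps27l from -0.19 to 0.064. From 12 to 24 hours the fold changes of Rpl3, Rpl10, Rps4l, Rpl22l1, Rpl5, Rpl11 and Rpl7l1 also changed sign under some alternatives, which were seen and then left out of these counts. The cause was not tested in any of these. With 3 embryos per group only differences well above a median SE of 0.12 to 0.16 (log2) could pass the test between genotypes.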
